A study of Mus musculus with 12 samples.

Results

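The peaks described here are regions of open chromatin in mouse myotubes whose centre lies in a simple repeat or a low-complexity tract. They were chosen by annotation and by mean level over all libraries. The detailed annotation of a peak names a simple repeat or a low-complexity tract, and the peak is not annotated as a promoter. Its mean over the 6 ATAC-seq libraries is at least 5 tags. A tag is the unit in which sequenced reads were counted, a read being taken here as 0.5 tags. Values are per 10 M tags of a library (M, 10 to the power of 6). This rule gave 328 of the 37358 peaks with such a mean, out of 38244 peaks in all. The annotation itself was carried by 452 peaks. Of these, 124 (27.4%) had a mean under 5 tags, against 886 of all 38244 peaks (2.32%), and 0 were annotated as promoters.

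Simple repeats, or microsatellites, are short units copied head to tail, and their copy number changes readily by slippage during DNA replication. Low-complexity tracts are stretches dominated by 1 or 2 kinds of base without a clear unit. Tracts with all purines (A and G) on a single strand can adopt unusual DNA structures, long A runs resist bending around nucleosomes, and G- and C-rich tracts occur at many start sites of transcription. Reads from such sequence match many places in a genome, so its measured signal depends on how an aligner places them, and the treatment of reads with several matches is not given in the sources used here.

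ATAC-seq, in which the Tn5 transposase cuts and tags accessible DNA, was made from C2C12, a mouse myoblast line (labelled genotype C3H) that fuses into multinucleate myotubes. All 6 cultures were differentiated in 2% horse serum for 4 to 7 days. The 3 control libraries are set against 3 libraries given medium conditioned by Colon-26 (C26) colon carcinoma cells for 24 hours, a culture model of the muscle wasting that tumours cause (cachexia). The labels give the cell type as myoblast although the titles name myotubes, and they do not describe the control medium. A second readout is polyA RNA of muscle from C57BL/6 mice, taken on day 22, with 3 libraries from mice injected with PBS and 3 from mice injected with 500000 cells of Lewis lung carcinoma (LLC), and neither the muscle nor the age of the mice is named. The cultures were seeded in triplicate and nothing says that libraries came from separate cultures or animals, so p-values measure only the spread between these libraries, which may be technical.

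For 3 of the 328 peaks a RefSeq promoter window (GRCm38.p6, the assembly that mm10 names) holds the peak centre, and these are shown because they give the sequence around a peak centre. Each line gives the 250 bases before the annotated start, on the plus strand of the genome. Capitals mark the longest run of A (Gm39853) or of G and C (the others), and, in Gm39853, also the motif TGANTCA, the sequence that AP-1 factors bind. The windows lie at chr2:75613142-75613391 (Gm39853, gene on the plus strand), chr16:13447702-13447951 (Gm32817, plus strand) and chr8:46152442-46152691 (Snx25, minus strand).
Gm39853: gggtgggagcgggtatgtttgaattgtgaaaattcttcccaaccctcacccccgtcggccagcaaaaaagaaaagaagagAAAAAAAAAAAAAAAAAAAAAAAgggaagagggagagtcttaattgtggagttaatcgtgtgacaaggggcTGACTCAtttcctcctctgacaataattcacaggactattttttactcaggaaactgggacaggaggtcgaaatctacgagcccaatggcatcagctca
Gm32817: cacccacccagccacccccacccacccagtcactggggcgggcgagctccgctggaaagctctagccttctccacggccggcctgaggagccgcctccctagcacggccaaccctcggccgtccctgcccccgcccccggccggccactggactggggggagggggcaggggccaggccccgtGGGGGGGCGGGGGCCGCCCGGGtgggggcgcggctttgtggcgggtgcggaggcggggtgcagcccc
Snx25: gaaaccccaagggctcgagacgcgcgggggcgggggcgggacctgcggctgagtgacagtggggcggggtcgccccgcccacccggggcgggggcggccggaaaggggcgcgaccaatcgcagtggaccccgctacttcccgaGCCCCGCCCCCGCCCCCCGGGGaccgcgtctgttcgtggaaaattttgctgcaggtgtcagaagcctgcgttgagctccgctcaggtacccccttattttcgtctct

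The A run of the Gm39853 window is 23 bases long and lies 6 bases from the peak centre. The G and C runs of the others are 22 bases each and lie 20 (Gm32817) and 59 bases (Snx25) from it, so the capitals mark the longest run and are not shown to be the annotated repeat. The peak at the Gm39853 window, annotated as an A run (chr2:75612915-75613517, annotated to Hnrnpa3, which encodes an RNA-binding protein) held 65.2, 25.99 and 41.0 deposited tags in controls 1 to 3 and 14.8, 21.2 and 19.5 after C26 medium. Every C26 value lay below every control value, also after the scaling described below, where the log2 difference was -0.61 (SE 0.18, limma adjusted p = 0.00701). The deposited values gave -1.13 with a limma adjusted p of 0.0812. The peaks on the other windows overlapped between the groups, with 33.5, 21.9 and 20.8 against 24.6, 13.2 and 25.3 tags at Gm32817 (annotated to Mir193b) and 24.6, 9.45 and 10.4 against 7.02, 10.1 and 11.3 tags at Snx25 (annotated to Cfap97).

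In all, 14 of the 328 peaks overlapped a RefSeq promoter window of 300 bases (250 before to 50 after a start), in 15 windows. Of the 11 windows that lay wholly in such a peak, 3 held TGANTCA on either strand (27.3%), against 2564 of all 32817 windows (7.81%). The motif is its own reverse complement, so a match stands on both strands, and the 3 windows belong to Gm39853, Cald1 (caldesmon, an actin-binding protein) and Tspan4 (a tetraspanin). The peak at the Cald1 start had a scaled log2 difference of 0.01 (SE 0.11) and that at the Tspan4 start one of -0.27 (SE 0.10). Matches are a description of letters, and 11 windows are few. The Gm40371 windows among them (chr6:47651255-47651554 and chr6:47651271-47651570) overlap each other in the same peak. The 32817 windows were not chosen for open chromatin.

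The 6 ATAC libraries held 10.1 to 18.2 M tags. They differed in the share of tags that fell in peaks, which was 27.0, 13.1 and 17.9% in controls 1 to 3 and 13.0, 12.0 and 13.5% after C26 medium. The deposited values follow that share: over all tested peaks the median was 50.9, 23.6 and 32.1 tags in the controls and 24.6, 22.9 and 26.6 after C26 medium, and the median log2 difference (C26 minus control) was -0.54. Each result is therefore given as deposited and after median-of-ratios scaling, which divides each library by its typical ratio to the mean library and brings the median difference of all tested peaks to -0.02. Whether the differing share has a technical or a biological cause was not tested. Promoter peaks were found for 2 of 8 muscle markers (Myod1 and Tnnt3, at 16.9 and 16.8 tags) and for 0 of 9 markers of leukocytes, endothelium, epithelia, neurons and hepatocytes, so Myog, Mef2c, Acta1, Ckm, Des and Actc1 had none.

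**Figure D1:**
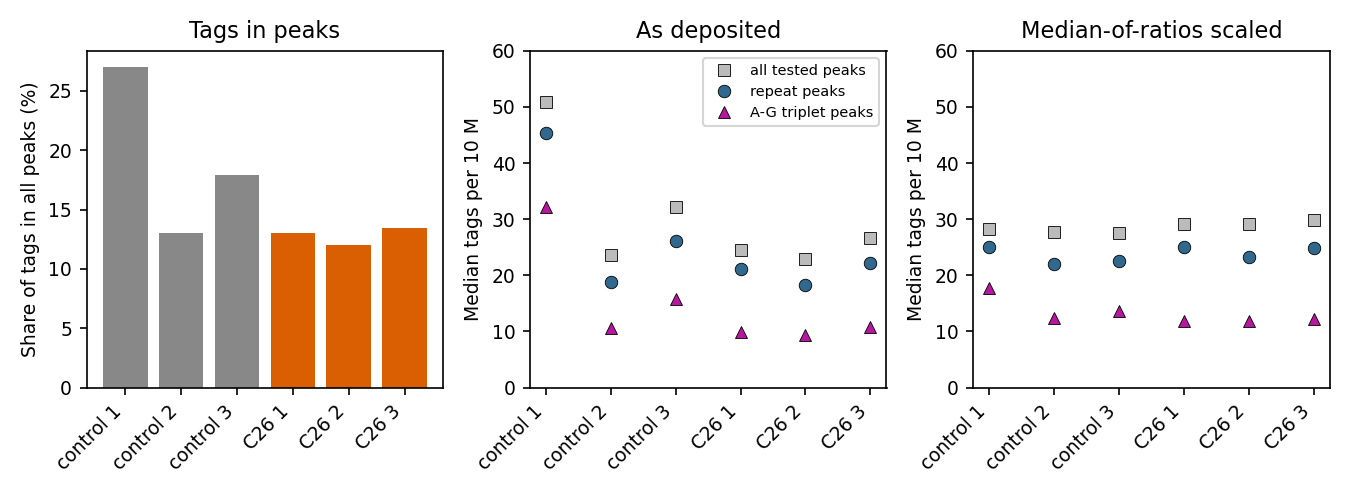
Share of tags in all peaks for each ATAC-seq library (left, percent), and the median tags per 10 M for all tested peaks, the repeat peaks and the A-G triplet peaks, as deposited (middle) and after median-of-ratios scaling (right). Control 1 stands highest in the left and middle panels, with 27.0% of its tags in peaks, and the A-G triplet peaks keep a higher median there (17.8 tags) after scaling.

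The repeat peaks held a small and similar part of the peak signal in every library, with 0.767, 0.703 and 0.716% of peak tags in controls 1 to 3 and 0.724, 0.706 and 0.730% after C26 medium. Their median level was 45.4, 18.7 and 26.2 tags in the controls and 21.1, 18.2 and 22.3 tags after C26 medium. After scaling these medians were 25.1, 22.0 and 22.5 against 25.1, 23.2 and 24.96 tags, so the groups overlapped.

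By unit, A-G triplets formed the largest single class. These are the repeats annotated (GGA)n or (TCC)n, the same unit read from either strand, and they made up 62 of the 328 peaks. A-C dinucleotides, annotated (CA)n or (TG)n, made up 48, G-rich or C-rich tracts 39, A-G dinucleotides such as (GA)n and (TC)n 25, GA-rich or CT-rich tracts (named A-G-rich here, with polypurine and polypyrimidine among the other classes) 23 and runs of A or T 15. AT-rich and GC-rich tracts had 10 each, and 96 peaks fell into classes with fewer than 10 members. Units or tracts of purines on a single strand made up 148 of the 328 (45.1%).

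**Figure D2:**
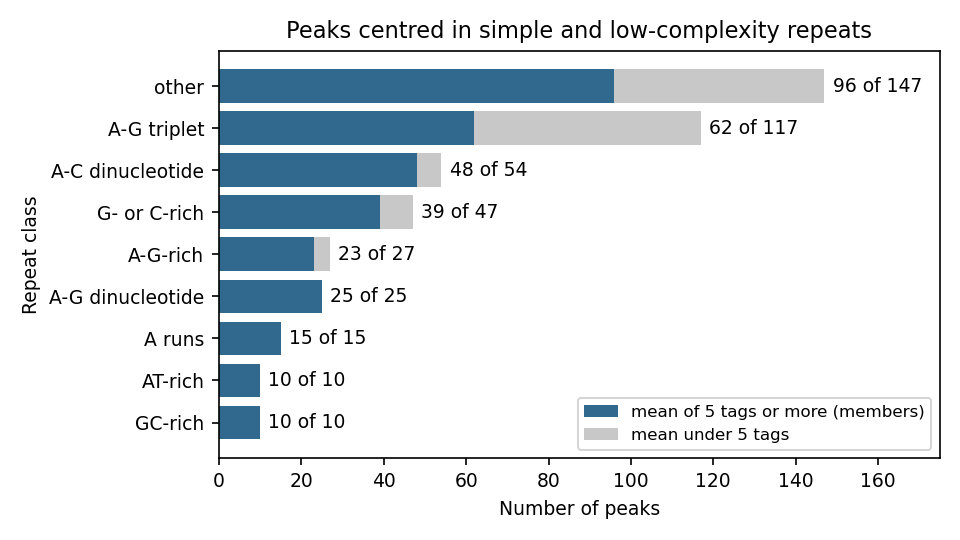
Number of peaks centred in each repeat class (horizontal axis), split into those with a mean of at least 5 tags and those below it. Of the 117 A-G triplet peaks 62 reached the mean of 5, whereas all 25 A-G dinucleotide peaks did.

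The classes differed in how many of their peaks reached a mean of 5 tags. All 25 A-G dinucleotide peaks, all 15 A runs and all 10 peaks of either AT-rich or GC-rich tracts did, and 48 of 54 A-C dinucleotide peaks. Of the 117 A-G triplet peaks only 62 did (53.0%), so this class supplied 55 of the 124 peaks below 5 tags (44.4%). Units of 6 bases were kept in 9 of 29 cases. Most of those lost were (TTAGGG)n, kept in 0 of 16, and its reverse complement (CCCTAA)n, kept in 0 of 3. The A-G triplet peaks that stayed also had a low median level, 15.3 tags against 24.9 over all 328, yet 57 of the 62 were present in all 6 per-library peak lists. At the threshold, the lowest members were peaks near Tcp10c, Zfp825 and Id4, at 5.01, 5.02 and 5.05 tags, and the highest peaks left out were near Ttc39b, Mgat4c and 1010001N08Rik, at 4.98, 4.83 and 4.76 tags.

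Repeat peaks were wider, farther from starts and slightly lower than the tested peaks as a whole. Promoter peaks are left out of the repeat peaks but not of all tested peaks, so distances and features are not like for like. Their median width was 612.5 bp against 522 bp over all tested peaks, and their median mean was 24.9 tags against 30.1. Every member was annotated as intronic (155, 47.3%) or intergenic (173, 52.7%), while these features covered 36.4% and 35.2% of all tested peaks. The peaks with this annotation below 5 tags were likewise intronic (48) or intergenic (76), so no other feature occurs with it. The median distance to the nearest annotated start was 26787.5 bp, against 13334 bp. Only 15 (4.57%) lay within 1 kb of a start, against 28.8% of all tested peaks, from which promoter peaks had not been removed. Beyond 50 kb lay 108 (32.9%), against 23.1%. In all 6 per-library peak lists were 213 (64.9%), against 60.7%. GC-rich tracts were the class nearest to starts, with a median distance of 3869 bp, and the widest, with a median of 952 bp; A-G triplets had a median distance of 49904.5 bp.

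The 5 highest repeat peaks had means of 165 to 209 tags. The peak near Kcnk16, which encodes a potassium channel, is annotated (GGA)n, spans 2762 bp (chr14:20253355-20256116) and had the highest mean, 209 tags. The annotation covers the peak centre, and how much of the peak is repeat was not examined. It held 420, 171 and 250 deposited tags in controls 1 to 3 and 158, 111 and 144 after C26 medium. All C26 values lay below all control values, and the difference was called only in the scaled fit (log2 -0.40, SE 0.09, limma adjusted p = 0.000501), the deposited one having an adjusted p of 0.0674. Next came a G-rich peak in an intron near Cntrob, a centriole protein (chr11:69316092-69316614, mean 191), with 287, 162 and 221 against 169, 148 and 159 tags. A C-rich peak near A630001O12Rik (chr8:126839076-126840012, mean 189) held 289, 133 and 183 against 188, 158 and 183 tags. These overlap as deposited (log2 -0.12), but after scaling they were 160, 156 and 158 against 223, 201 and 206 tags, a rise of 0.41 (SE 0.08, limma adjusted p = 0.000158). The (TG)n peak near D030025P21Rik (mean 168) and the GA-rich peak near Rrbp1, a ribosome-binding protein of the endoplasmic reticulum (mean 165), overlapped between the groups after scaling, with differences of 0.12 and -0.06.

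As deposited, 4 of the 328 repeat peaks were called higher after C26 medium and 4 lower, at a limma adjusted p under 0.05 over all tested peaks. That is 1.22% in each direction, beside 1.15% of all tested peaks called higher (428) and 1.88% called lower (704), so neither share stands far from the background. The median log2 difference of the repeat peaks was -0.57, beside -0.54 for all tested peaks. The calls depend on which libraries enter the fit, among the repeat peaks as over all tested peaks. Without control 3 no repeat peak was called, and leaving out C26 library 1, 2 or 3 left none called lower and at most 1 higher. In those fits at most 0.380% of all tested peaks were called higher and 0.137% lower. Without control 1 there were 16 higher and 23 lower calls (4.88% and 7.01%, beside 5.23% and 7.01% of all tested peaks). Without control 2 as many as 177 were called lower (54.0%, beside 53.1%). The differences of the 8 called peaks kept their direction with any library left out; without control 3 they were 72.0 to 109% of their size in the full fit on the log2 scale, as near Myrip with -1.35 against -1.29 and near Sbk2 with -1.59 against -1.46, while their adjusted p rose above the threshold. With no filter on low peaks, the rises near Asb13, Ism1 and Ripk2 stayed called, and the rise near E130006D01Rik and all 4 falls did not, with limma adjusted p of 0.0526 to 0.127. All 8 calls were also made, in the same direction, in the scaled limma fit and by edgeR on the recovered reads.

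**Figure D3:**
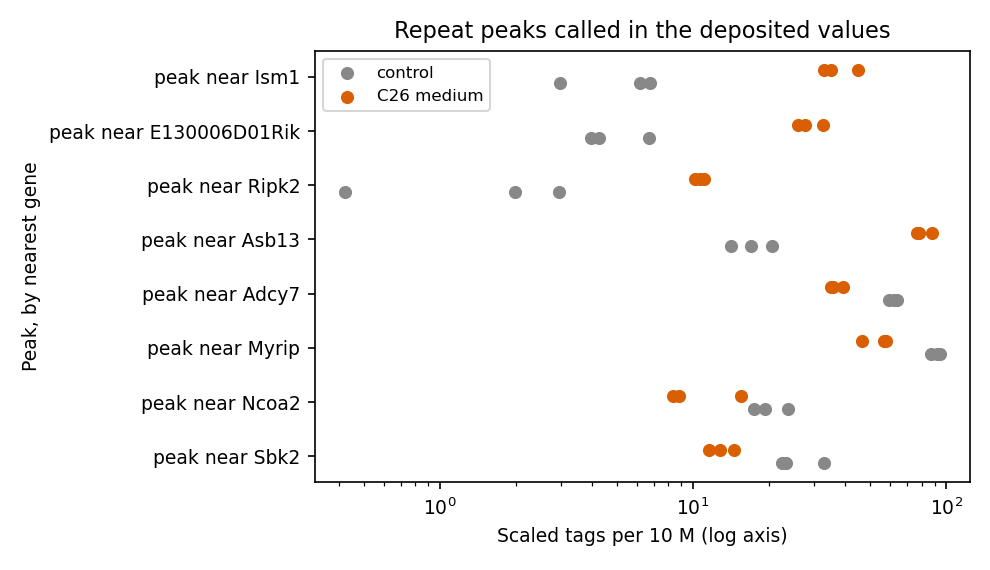
Scaled tags per 10 M in each library (log axis) for the 8 repeat peaks called in the deposited values, named by their nearest gene, with controls in grey and C26 medium in orange. The groups do not overlap at any of the 8 peaks, and the peak near Ripk2 has the lowest control value, 0.421 tags.

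Among the 4 rises, the (CA)n peak near Asb13 was the most highly covered (chr13:3694576-3695369, intergenic, 60.9 kb from the start). Asb13 encodes a substrate receptor of the cullin-type ubiquitin ligases. The peak held 25.5, 17.6 and 19.8 deposited tags in the controls and 65.5, 60.04 and 78.3 after C26 medium. Every C26 library was above every control library even as deposited, by a log2 difference of 1.66 (SE 0.39, limma adjusted p = 0.00281). After scaling the means were 17.2 ± 3.25 and 80.7 ± 6.17 tags (SD, n = 3 each), a difference of 2.18 (SE 0.15, limma adjusted p = 1.27e-16).

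The AT-rich peak near Ism1, which encodes the secreted protein isthmin (chr2:139765834-139766499, intergenic), was in 3 peak lists, all from C26 libraries. It held 11.2, 5.74 and 3.46 tags in the controls and 27.7, 27.4 and 39.8 after C26 medium. The groups were far apart, with log2 differences of 2.17 as deposited (SE 0.44, limma adjusted p = 0.000225) and 2.66 scaled (SE 0.27), the largest rise among the repeat peaks in both fits.

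The (TC)n peak near the noncoding gene E130006D01Rik (chr5:111858729-111859319) was in no control peak list and held 12.1, 3.38 and 4.94 tags against 27.3, 20.5 and 24.7. It rose by 1.84 as deposited (SE 0.45, limma adjusted p = 0.00446) and by 2.34 scaled. A (GGA)n peak near the same gene (chr5:111867073-111867575) had scaled means of 49.0 ± 2.23 and 54.7 ± 4.92 (SD, n = 3 each) and was not called. The (ATG)n peak near Ripk2, a kinase downstream of the NOD receptors (chr4:16103080-16103380), was low throughout, with 5.36, 1.69 and 0.49 tags against 8.97, 7.98 and 9.89. Its log2 difference was 1.75 (SE 0.53, limma adjusted p = 0.0358), and with a pseudocount of 5 tags the difference was 0.94 and not called (limma adjusted p = 0.0578). The peak near Ripk2 was in no control peak list, and its control mean was under 5 tags. It passed the filter only through its C26 values, on which its rise also rests.

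The 4 falls had higher control levels. A G-rich peak in an intron near Myrip, which links myosin to secretory granules (chr9:120367225-120367806), held 171, 78.3 and 101 tags in the controls and 39.0, 44.8 and 51.4 after C26 medium. It fell by 1.29 on the log2 scale as deposited (SE 0.36, limma adjusted p = 0.0202) and by 0.76 scaled, where the controls were 94.5, 91.9 and 87.1 tags and the C26 libraries 46.4, 57.0 and 57.6. The (TG)n peak near Adcy7, an adenylyl cyclase (chr8:88265602-88266431), held 116, 50.6 and 72.7 against 30.0, 27.4 and 34.9 tags and fell by 1.27 (SE 0.38, limma adjusted p = 0.0325), and by 0.75 scaled.

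The (CA)n peak near Sbk2, a protein kinase gene (chr7:4947924-4948625), held 59.4, 19.9 and 26.2 against 9.75, 10.1 and 12.9 tags. It fell by 1.46 (SE 0.42, limma adjusted p = 0.0256), and by 0.95 scaled. The A run near Ncoa2, a coactivator of nuclear receptors (chr1:13427679-13428060), held 34.9, 14.8 and 27.7 against 7.41, 12.2 and 7.42 tags, with a fall of 1.38 (SE 0.43, limma adjusted p = 0.0494) and of 0.87 scaled. This deposited call is at the edge of the threshold, with a limma adjusted p of 0.0560 with the replicate number as a block and 0.0529 with a pseudocount of 5 tags. The peaks near Sbk2 and Ncoa2 were in no C26 peak list. In the scaled fit all 8 calls but that near Ncoa2 held whichever library was left out; it held in 4 of the 6 such fits.

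After scaling, 43 repeat peaks were called higher (13.1%) and 44 lower (13.4%), beside 17.0% and 12.7% of all tested peaks (6368 and 4753). Scaling moved the share of higher calls among all calls from 37.8% to 57.3% over all tested peaks; among the repeat peaks 4 of 8 calls were higher before it and 43 of 87 after it. The share called higher was thus below this background and the share called lower near it, and the difference of these shares was not tested. The background holds many peaks within 1 kb of a start, where 2.51% of all tested peaks were higher and 21.2% lower. Such peaks are few among the repeat peaks. From 1 to 50 kb the repeat peaks were 12.7% higher and 12.7% lower, beside 21.5% and 9.52% of all tested peaks. The 43 rises had a median log2 difference of 0.69 (0.33 to 2.66), and the groups did not overlap in 40. The 44 falls had a median of -0.52 (-0.97 to -0.27), and the groups did not overlap in 40. Rises of at least 1 on the log2 scale numbered 13, and no fall was that large. Whichever library was left out, 29 of the 43 rises and 14 of the 44 falls held. Without control 1 the falls numbered 27 (8.23%, beside 10.3% of all tested peaks). These peaks were picked by adjusted p on the same libraries, so separated groups add no further support. Their separation, size and stability are not given here for all tested peaks, so they are no trait of the repeat peaks.

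Further rises in the scaled fit were chosen for naming after values had been seen. A CT-rich peak near Klf6, a zinc finger factor (chr13:6029455-6030432), held 30.7, 24.2 and 31.4 scaled tags in the controls and 65.0, 72.9 and 68.1 after C26 medium. It was 1.24 higher on the log2 scale (SE 0.13, limma adjusted p = 1.89e-10), while its deposited values overlapped. A T-rich intronic peak near Arhgap18 held 18.3, 19.8 and 15.3 against 36.7, 38.9 and 50.8 scaled tags. A (GA)n peak near Foxp1, a forkhead factor, held 13.1, 8.32 and 4.24 against 15.3, 24.8 and 21.3, a rise of 1.25 (SE 0.29) that separates the groups by little more than 2 tags. Peaks near Galk2, 2210408F21Rik and Vgll3, a cofactor of TEAD factors, rose by 1.33, 1.69 and 1.25. Those near Galk2 and 2210408F21Rik were in no control peak list, with scaled control means of 10.8 and 3.40 tags. Further falls near Gm36480, Ms4a6b, Pudp, Cnot2, Tagap and 4930447M23Rik lay between -0.97 and -0.75.

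**Figure D4:**
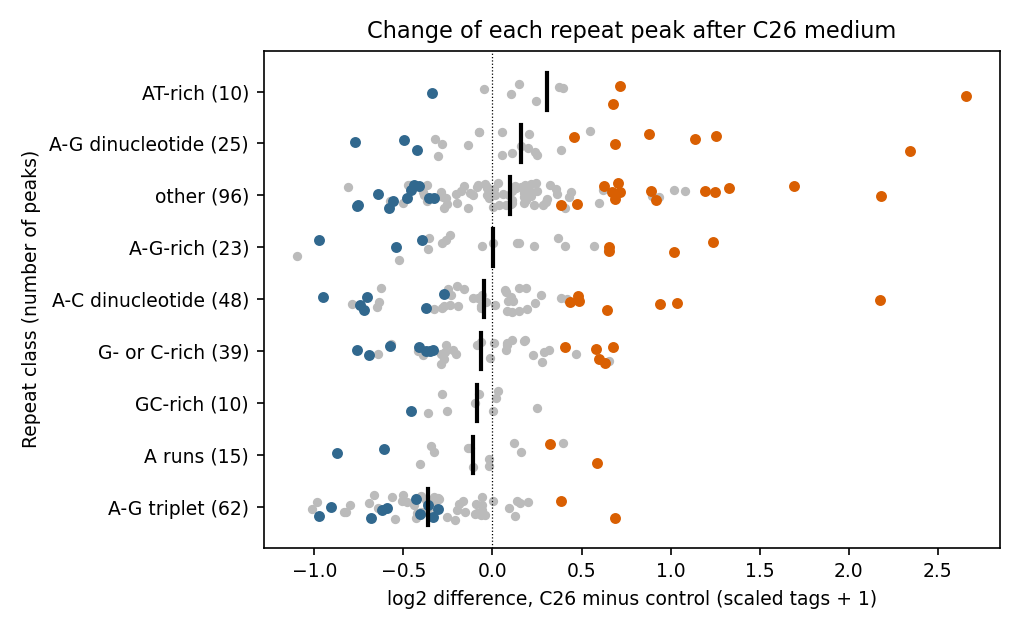
Log2 difference (C26 minus control, scaled tags + 1) of each of the 328 repeat peaks by repeat class, with the class median as a bar, peaks called higher in orange, called lower in blue and others in grey. The A-G triplets have the lowest median, -0.36, and the AT-rich tracts the highest, 0.31.

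The repeat classes differed in their balance of calls after scaling. Of the 62 A-G triplet peaks 2 were higher and 10 lower (3.23% and 16.1%, beside 17.0% and 12.7% of all tested peaks), and their median log2 difference was -0.36, the lowest of the classes. Their median scaled level was 17.8, 12.5 and 13.6 tags in controls 1 to 3 and 11.8, 11.9 and 12.2 tags after C26 medium. Control 1 thus stands apart in this class also after scaling, while controls 2 and 3 lie close to the C26 libraries. Without control 1 the falls in this class numbered 4 and the median was -0.23, while quantile normalization gave 19 falls and a median of -0.56. What sets control 1 apart in this class was not tested. The rises in the class were near Hivep3 and Eef1e1, chosen here after their values were seen, with scaled differences of 0.69 and 0.38.

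A-G dinucleotides had 6 rises and 3 falls among 25 and a median of 0.16. AT-rich tracts had 3 rises and 1 fall among 10 and a median of 0.31, with library medians of 26.3, 20.8 and 25.5 scaled tags in the controls and 30.9, 33.4 and 37.3 after C26 medium, which do not overlap. A-C dinucleotides had 7 rises and 6 falls among 48 (median -0.05), G-rich or C-rich tracts 5 and 7 among 39 (median -0.06), and A-G-rich tracts 4 and 3 among 23 (median 0.00). Runs of A had 2 of each among 15 (median -0.11), GC-rich tracts 0 and 1 among 10 (median -0.08), and the smaller classes together 14 and 11 among 96 (median 0.10). No test compared the classes. Of the best-covered peak of each class, that of the AT-rich tracts lies in an intron near Vcam1, which encodes an adhesion protein that leukocytes bind. This peak held 75.9, 72.9 and 82.4 against 54.3, 67.6 and 60.4 scaled tags. It fell by 0.34 on the log2 scale (SE 0.11, limma adjusted p = 0.0146), opposite to its class median. The best-covered GC-rich peak, near the start of Lcor, a nuclear receptor corepressor, A-G dinucleotide peak, near Mrgprd, and A run, near Tcf4, had scaled differences of -0.26, 0.20 and 0.12 and were not called.

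The calls of the scaled fit were also counted by distance to a start, without a test. Within 1 kb of a start 0 of 15 repeat peaks were higher and 5 were lower (33.3%), beside 2.51% and 21.2% of all tested peaks there. These 5 lay near Pknox2, Fbxl2, Baz2b, Tspan4 and Fam160b2 and are named after their values were seen. From 1 to 50 kb 12.7% were higher and 12.7% lower, beside 21.5% and 9.52%, and beyond 50 kb 15.7% and 12.0%, beside 25.999% and 8.77%. Among intronic peaks 11.0% of the repeat peaks were higher and 12.9% lower, beside 21.3% and 9.07% of all, and among intergenic ones 15.0% and 13.9%, beside 23.2% and 10.1%. At a mean under 20 tags 9.63% of the repeat peaks were higher, beside 19.7% of all tested peaks, and at 20 tags or more 15.5%, beside 15.9%. The gap in the share of rises was thus wide under 20 tags and small at 20 tags or more, as a description without a test. All tested peaks include many within 1 kb of a start, of which 2.51% were higher, so the shares by level are not like for like. At each distance and feature given above, the share of rises was also lower among the repeat peaks.

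Several genes were nearest to more than 1 repeat peak: Tagap to 3 and 9 others to 2 each. Both peaks near Kcnk16 fell after scaling, the second from 47.2 ± 1.73 to 29.4 ± 4.69 tags (SD, n = 3 each; log2 -0.68, limma adjusted p = 0.000296). So did both near Rbbp6, a ubiquitin ligase that binds the retinoblastoma protein, by 0.46 at a (CAG)n and by 0.43 at a (GGA)n. At Tagap a (TCC)n and a CT-rich peak fell, by 0.59 and 0.97, while another (TCC)n peak went from 9.27 ± 1.85 to 6.69 ± 0.247 tags (SD, n = 3 each) and was not called. Near Arid5b, a DNA-binding cofactor, the T run and the AT-rich peak had differences of -0.41 and 0.40, neither called. Such neighbours share a locus and are not independent.

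Of the 306 genes in the 5 lists kept for this study, 12 were nearest to a repeat peak, which leaves too few peaks to set against the 17.0% and 12.7% of all tested peaks called higher and lower in the scaled fit. None of the 53 genes for atrophy, ubiquitin and FOXO did. Of 70 genes for muscle identity and contraction 2 did, with 3 peaks. The (TG)n peak in an intron near Dysf, which encodes dysferlin, a protein of membrane repair, held 66.1, 38.8 and 57.3 deposited tags against 52.7, 39.9 and 63.5, which overlap (log2 -0.05). After scaling it held 36.6, 45.5 and 49.3 against 62.6, 50.8 and 71.2, a rise of 0.48 (SE 0.13, limma adjusted p = 0.00387). The peaks near Myom2, an M-band protein, had scaled means of 6.15 ± 1.79 and 2.77 ± 2.47 tags at a GA-rich tract and of 8.08 ± 2.65 and 4.71 ± 0.941 at a (GGA)n (SD, n = 3 each), and neither was called.

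Among 56 genes of the AP-1, NF-kB and IL-6 response, Egr1 and Runx3 had a repeat peak, and 0 were called, with scaled differences of 0.03 and 0.19. Among 76 genes of TGF-beta, activin, Wnt and the matrix 5 had one. In the scaled fit 2 were higher, near Ism1 and Col4a1, a basement membrane collagen named after its values were seen (log2 0.48, SE 0.18, limma adjusted p = 0.0444), and 1 was lower. That fall was at a CT-rich tract in an intron near Col5a1, a fibrillar collagen (chr2:27888763-27889524), with 89.6, 95.03 and 93.8 against 66.8, 66.3 and 78.3 scaled tags (log2 -0.40, SE 0.10, limma adjusted p = 0.0023). The peaks near Col3a1, another fibrillar collagen, and Ccn1, a matricellular protein, had differences of -0.64 and 0.10 and were not called. Among 51 genes of the methionine cycle, methylation and stress response, 3 had one. The C-rich peak near Hif1a, the oxygen-regulated factor (chr12:73818850-73819458), held 39.6, 40.8 and 34.4 against 56.6, 57.5 and 65.0 scaled tags and rose by 0.63 (SE 0.13, limma adjusted p = 0.000114), while its deposited values overlapped. The peaks near Odc1, which makes polyamines, and Trib1 had differences of -0.57 and -0.17 and were not called.

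In muscle RNA, 284 of the 316 named genes nearest to repeat peaks were listed (1 repeat peak has no gene name), and 200 had a mean of at least 1 FPKM (fragments per kilobase of exon and M tags). Of these, 0 were called between LLC and PBS muscle (limma, adjusted p under 0.05), as were 0.0% of all 12981 genes tested. At an unadjusted p under 0.05 there were 21 of the 200 and 991 of all genes. The median log2 difference was 0.02 for the nearest genes and 0.01 for all. Hif1a had the smallest adjusted p among the nearest genes, 0.199 by limma, with 11.0, 10.9 and 9.83 FPKM in PBS muscle and 17.6, 15.9 and 19.5 FPKM in LLC muscle, which do not overlap. Col5a1 held 13.7 ± 4.22 FPKM in PBS and 6.37 ± 1.91 FPKM in LLC muscle (SD, n = 3 each; limma adjusted p = 0.427). The genes nearest to the 8 peaks called as deposited had overlapping RNA values in the groups, as for Asb13 with 6.84 ± 2.31 and 6.75 ± 0.937 FPKM, and Ripk2 with 2.30 ± 0.430 and 2.35 ± 0.406 FPKM (SD, n = 3 each).

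All 8 muscle markers were above 1 FPKM in this RNA. The summed level of the markers of other cells, 8 of 9 of them listed, was 79.5 to 126 FPKM in PBS and 167 to 271 FPKM in LLC muscle, but they did not move together. The endothelial markers Pecam1 (31.0 to 37.3 against 72.1 to 91.8 FPKM) and Cdh5 (17.4 to 29.4 against 39.4 to 53.6) were higher in every LLC library, and the epidermal Krt14 ranged from 0 to 13.8 against 10.1 to 126 FPKM. The leukocyte markers Ptprc (3.86 to 33.4 against 16.5 to 22.1) and Cd68 (9.47 to 28.4 against 11.7 to 13.4) overlapped, the hepatocyte marker Alb was lower in every LLC library (1.02 to 3.98 against 0.198 to 0.671), and the neuronal Neurod1 was listed at 0 in all 3 LLC libraries. Their part in the RNA values was not tested, and a different number of cells of a type cannot be told apart from a different amount of RNA per cell. The RNA comes from whole muscle of mice with another tumour than the one that conditioned the myotube medium, so a gene and its nearest peak are set side by side as descriptions only.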

How the data were processed

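The ATAC values are signal: over a merged peak list annotated with HOMER in mm10 the authors counted the tags of each peak and scaled every library to 10 M tags, per the file headers. The RNA values are FPKM, which the authors made with HOMER over exons in mm10 without regard to strand, keeping 1 transcript for each gene, per the file headers. The submitters' processing notes name HISAT2, HOMER, DESeq2, Bowtie2, MACS2, GRCm38 and mm10 without roles, and how duplicates, Tn5 shifts and reads with several matches were handled is not given in the sources used here. ATAC values were whole steps of 0.5 tags for 100% of values within a tolerance of 0.05 of a step, which gave back reads for tests with edgeR 4.0.16 and DESeq2 1.42.0. No library was a copy of another, and all 12 sample columns were used.

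The main test was limma 3.58.1 (lmFit, eBayes with trend, two-sided) in R 4.3.3 on log2(value + 1), over every peak averaging 5 tags or more and every gene averaging 1 FPKM or more, with Benjamini-Hochberg adjustment over all of them and a threshold of 0.05. Log2 differences understate the change of low peaks. Members were read out of that table. The limma fits were also run on simulated reads in which only peaks above the median level were changed. That run does not cover changes of low peaks, and no result here rests on it. The values of the groups with the same replicate number did not deviate together (correlations of -0.02, 0.01 and -0.02 over peaks), so numbers were not used as pairs.

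The members and the gene lists were chosen with earlier results of these data known. Peaks were named by a rule: up to 10 largest rises and falls past the threshold with no overlap, the 5 highest, the highest of each class with at least 10 members, up to 4 per gene list by p, and 3 on each side of the mean of 5. The largest rises and falls after scaling were added after values had been seen. Classes join a unit with its rotations and reverse complement. Alternatives were other pseudocounts, filters, scalings, thresholds and tests, a replicate term, and fits that left out each library in turn. Promoter sequences are from RefSeq, GRCm38.p6; peak sequences were not analysed here. Plots were made with matplotlib 3.10.9 in Python 3.11.15, with pandas 2.3.3.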

Additional observations from a re-analysis of the deposited data

How the results depend on the processing

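As deposited, 4 repeat peaks were called higher and 4 lower after C26 medium. The higher count was 1 with a mean of at least 20 tags, 43 by median-of-ratios scaling, 43 by quantile normalization, 47 with edgeR and 34 with DESeq2, and 0 to 16 when each library was left out in turn. The lower count was 10 with no filter, counted over 452 peaks since the 124 under 5 tags enter, and 2 over the same 328, with none of the 4 falls named above among them. It was 44 by median-of-ratios scaling, 65 by quantile normalization, 35 with no trend, 48 with edgeR, 29 with DESeq2 and 36 at an adjusted p under 0.1, and 0 to 177 when each library was left out, the highest without control 2. Over all peaks 428 were higher. That count was 283 with no filter, 133 with a mean of at least 20 tags, 6368 by median-of-ratios scaling, 5595 by quantile normalization, 710 with no trend, 6571 with edgeR, 4839 with DESeq2, 670 at an adjusted p under 0.1 and 92 to 1954 with a library left out. The 704 lower calls became 212 with no filter, 338 with a mean of at least 20 tags, 4753 by median-of-ratios scaling, 5426 by quantile normalization, 1892 with no trend, 4783 with edgeR, 2692 with DESeq2, 2825 at an adjusted p under 0.1 and 32 to 19854 with a library left out. The median log2 difference of the repeat peaks, -0.57, became -0.059 by median-of-ratios scaling, -0.062 with edgeR and -0.066 with DESeq2. In the scaled fit, leaving out each library gave 33 to 43 higher and 27 to 43 lower repeat peaks, where all libraries gave 43 and 44. Over all tested peaks the same fits gave 5168 to 5748 higher and 3235 to 4140 lower calls, where all libraries gave 6368 and 4753. The cause of these changes was not tested. The filters also change how many peaks are tested, and leaving 1 library out leaves fewer libraries. With no filter the same 37358 peaks had 264 higher and 176 lower calls. Those at an unadjusted limma p under 0.05 went from 11049 to 10374, so the p-values themselves changed too.

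The differences near Cntrob, D030025P21Rik and Mrgprd, negative as deposited and not called, were 0.08, 0.12 and 0.20 by median-of-ratios scaling, still not called, and 0.17, 0.21 and 0.28 by quantile normalization, where they were called. For A630001O12Rik the sign turned by median-of-ratios scaling (0.41), quantile normalization (0.51), edgeR (0.41) and DESeq2 (0.41), and for Dysf with the same (0.48, 0.48, 0.54 and 0.51). With the replicate block 4 repeat peaks were higher and 3 lower as deposited, the fall near Ncoa2 being lost, beside 415 and 656 of all tested peaks. Scaled, the block gave 48 and 44 (14.6% and 13.4%), beside 6364 and 4610 of all tested peaks (17.0% and 12.3%). Same-numbered libraries were not paired by the labels or the data. No gene nearest to a repeat peak was called in the muscle RNA under any alternative run. Low tags limit the peaks near the mean of 5, as near Tcp10c, whose libraries ranged from 1.79 to 7.41 tags.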

Other observations

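The 124 peaks in these repeats with a mean under 5 tags were weakly covered in the deposited values, with a median mean of 1.24 tags and a lowest mean of 0 tags. Even so, 73 of the 124 (58.9%) were present in all 6 per-library peak lists, beside 60.7% of all tested peaks. They lay farther from starts than the members, at a median of 56530 bp, and 27 of them lay beyond 200 kb. They were 14.0% of the 886 peaks of any kind below that mean, while the 452 peaks with this annotation are a small part of the 38244. Why peaks present in all 6 lists hold so few deposited tags was not tested.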
